A study of Mus musculus with 8 samples.

Results

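The respiratory chain genes are the 104 protein-coding genes that build the oxidative phosphorylation complexes of the mitochondrion or help to assemble them. They were chosen by name and position: every protein-coding gene of the mitochondrial chromosome, and every protein-coding gene whose symbol begins with Nduf, Uqcr, Cox4 to Cox8 or Atp5, or is Sdha, Sdhb, Sdhc or Sdhd. Of the 26893 genes in the table, 17194 were protein-coding and 104 met this rule, 91 encoded in the nucleus and 13 in mitochondrial DNA. The rule itself uses no measured value. All 104 passed the filter on low counts and were tested, among 15912 tested genes.

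Whole-kidney poly(A) RNA was sequenced in 8 libraries from mice aged 45 days. The 4 WT libraries came from C57BL/6 mice. The 4 Tsc1/Foxi1-dKO libraries (dKO) came from mice with floxed Tsc1, an Aqp2 Cre transgene and a Foxi1 knockout. Aqp2 is the water channel of principal cells, so the deletion of Tsc1 is limited to cells in which that promoter has been active, whereas Foxi1, the transcription factor of intercalated cells, is labelled as a knockout. Whether each sample is a separate animal is not stated, so the p-values speak only to the spread between the sequenced samples. In whole-kidney RNA, fewer cells of a type and less RNA per cell cannot be told apart.

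The respiratory chain moves electrons from NADH and succinate to oxygen. Complex I takes electrons from NADH and complex II, which is also an enzyme of the citrate cycle, takes them from succinate. Complex III passes them from ubiquinol to cytochrome c, complex IV (cytochrome c oxidase) hands them to oxygen, and complex V (ATP synthase) uses the proton gradient built by complexes I, III and IV to make ATP. All complexes but complex II hold subunits from both genomes, so the nuclear and mitochondrial mRNAs of one enzyme are made in different compartments. The kidney is rich in mitochondria, above all in the proximal tubule and the thick ascending limb, where salt and solute transport consume much ATP. Several complex IV subunits exist as a widespread isoform and a tissue-restricted one that is known from heart and skeletal muscle, from lung or from testis.

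Levels are given as CPM (counted reads per 1000000 of the scaled library size) when one gene is compared between libraries, and as FPKM (which also divides by gene length) when genes are compared with each other. Fold changes are on the log2 scale, positive where dKO is higher, and carry a standard error (SE). The SE was derived from the test, as the size of the log2 fold change over the square root of edgeR's F statistic. Adjusted p-values come from the quasi-likelihood test of edgeR and were adjusted by Benjamini-Hochberg over all 15912 tested genes. Total counted reads ran from 14791687 to 24973213 per library, and 3 reads, taken as the floor, corresponded to 0.121 to 0.207 CPM. Floors cover counting error only.

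Libraries were first read for the targeted genes. Foxi1 stood at 26.6 to 33.6 CPM in WT, at 1.33, 1.56 and 1.41 CPM in dKO replicates 1 to 3, and at 45.9 CPM in the library labelled dKO replicate 4, which went against its label. Tsc1 ran from 39.6 to 63.6 CPM in WT and from 43.3 to 57.6 CPM in dKO. Its deletion is limited to cells in which the Aqp2 promoter has been active. dKO replicate 1 held 0 reads of 4 Y-linked genes and 11083 reads of Xist, whereas the other 7 libraries held 2189 to 4380 Y-linked reads and at most 11 of Xist. Proximal tubule markers, all 10 of them detected, summed to 18723 to 20746 CPM in WT and to 13508 to 19094 CPM in dKO. Within that list Slc22a8 and Slc5a2 were higher in dKO without overlap, and Slc13a3 was lower without overlap. The lowest sum was that of dKO replicate 1. Results are therefore also given without dKO replicates 1 and 4 where they change.

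Of the 104 respiratory chain genes, 1 was called, against 2.28% of all tested genes. It was Cox6a2, which rose in dKO, a direction in which 1.16% of tested genes were called. With 1 of 104, or 0.962%, the share of members called did not exceed the background. The groups did not overlap in 5 members (4.81%), against 12.1% of all tested genes. The median log2 fold change was -0.02 over all 104 members and 0.01 over all tested genes. In 89 members (85.6%) the log2 fold change was smaller in size than 0.2, as it was in 59.4% of all tested genes. The members were also measured closely: in 89 of 104 the interval of the log2 fold change, taken as 2 SE to either side, lay within 0.5 of 0, and in 98 it lay within 1. The 6 whose interval reached past 1 were Cox6a2, Cox8b, Cox4i2, mt-Atp8, mt-Co3 and mt-Nd4l.

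**Figure D1:**
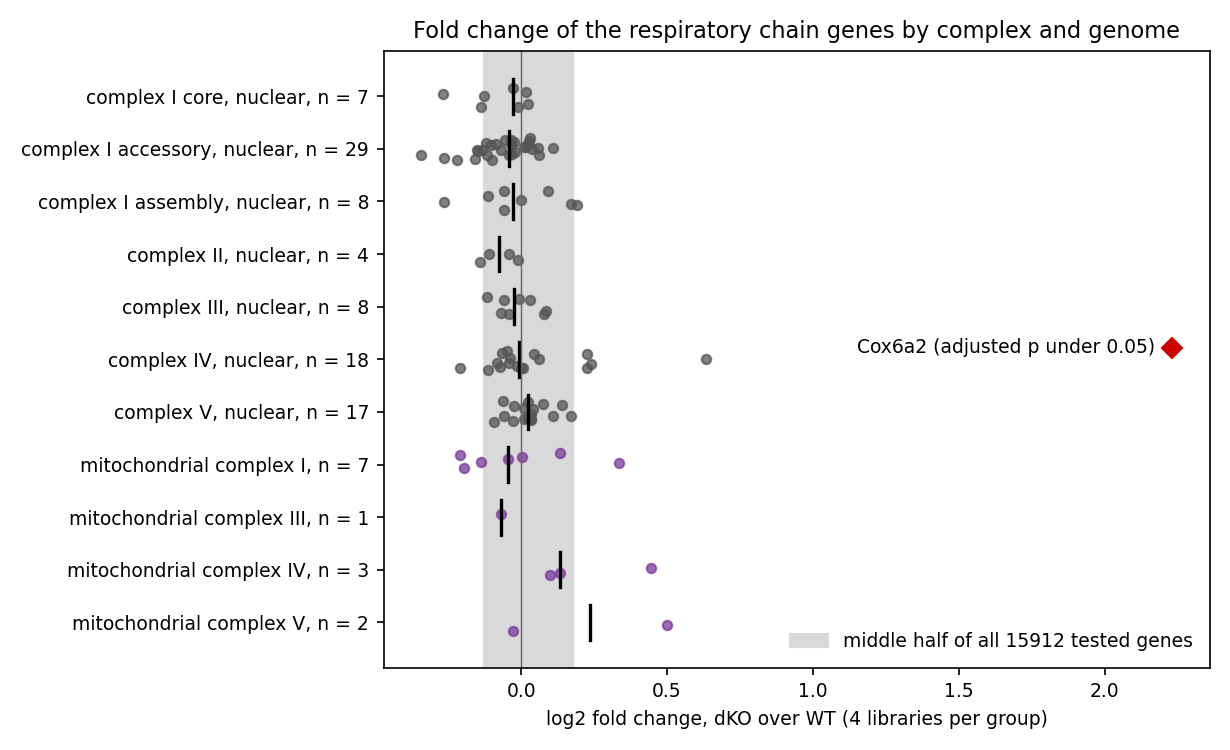
Log2 fold change of dKO over WT (x axis) for each of the 104 respiratory chain genes (points), grouped by complex and genome (y axis); black ticks are medians, the red diamond is the gene with an adjusted p under 0.05, and the grey band is the interquartile range of the 15912 tested genes. Cox6a2 at 2.23 stands apart, and the other members lie between -0.34 and 0.63.

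Cox6a2 (ENSMUSG00000030785, chromosome 7, 128205435 to 128206387, minus strand, positions as deposited) encodes the heart and skeletal muscle form of subunit 6A, a small nuclear-encoded subunit of cytochrome c oxidase. Its partner Cox6a1 (ENSMUSG00000041697, chromosome 5, 115345642 to 115348981, minus strand) encodes the widespread form. The coding sequences were compared, since reads of one isoform could otherwise be counted for the other. Over 294 aligned coding bases 190 were identical (64.6%), and the longest run they shared was 12 bases. The 60-base windows of the GENCODE M21 coding sequences that hold this run are shown with the run in capitals, from base 230 to 289 of Cox6a1 and from base 185 to 244 of Cox6a2.
Cox6a1: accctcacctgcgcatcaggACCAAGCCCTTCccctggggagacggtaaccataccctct
Cox6a2: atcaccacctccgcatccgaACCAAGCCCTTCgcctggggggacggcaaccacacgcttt

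Cox6a2 read 1.504, 2.46, 1.31 and 1.65 CPM in WT replicates 1 to 4, and 10.4, 4.79, 8.22 and 9.30 CPM in dKO replicates 1 to 4. Every dKO library was above every WT library, and dKO replicate 2 was the lowest of its group. These values rest on 27, 46, 19 and 29 reads in WT and on 236, 83, 204 and 169 reads in dKO. The mean rose from 1.73 ± 0.505 to 8.19 ± 2.44 CPM (SD, n = 4 per group). The log2 fold change was 2.23 (SE 0.28), with an adjusted p of 0.003 in edgeR's test. Over 20 alternatives, including each library left out in turn, the adjusted p ran from 1.27e-11 to 0.0176. Without dKO replicates 1 and 4 the log2 fold change was 1.91 (edgeR adjusted p = 0.00448), where 1.42% of tested genes were called higher. Cox6a1 read 535, 767, 578 and 603 CPM in WT and 676, 599, 683 and 603 CPM in dKO. The groups overlapped and WT replicate 2 was the highest of all 8 libraries. Its log2 fold change was 0.04 (SE 0.12, edgeR adjusted p = 0.905).

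**Figure D2:**
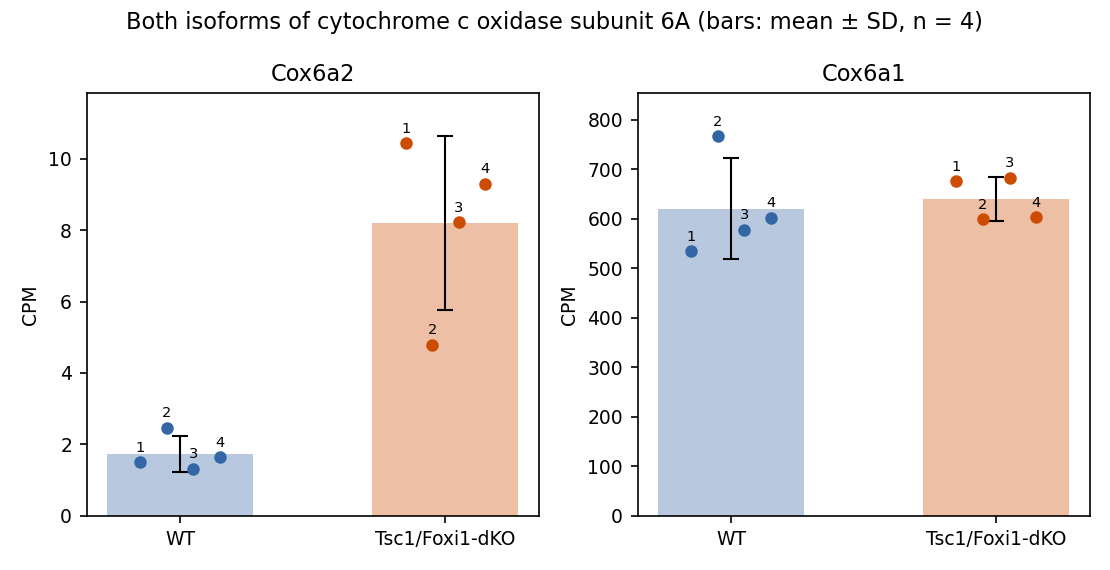
CPM (y axes from 0, with different scales) of Cox6a2 and Cox6a1 in the 4 WT and 4 dKO libraries; numbered points are replicates, bars are means and error bars are SD. Cox6a2 lies at 1.31 to 2.46 CPM in WT and at 4.79 to 10.4 CPM in dKO, while Cox6a1 overlaps between groups.

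Per length, Cox6a2 remained the minor form in both groups. It was 2.54 ± 0.749 FPKM in WT and 11.97 ± 3.56 FPKM in dKO, against 883 and 907 FPKM for Cox6a1. It thus made up 0.234 to 0.330% of the FPKM of the pair in WT and 0.819 to 1.57% in dKO. Cox6a2 lies within the span of Itgad, an integrin gene of the opposite strand that runs from 128154376 to 128223816. Itgad had 14 reads in all 4 WT libraries together and 13 in all 4 dKO libraries, and was not tested. The other 7 tested genes within 100 kb of Cox6a2 had adjusted p-values of at least 0.0986 by edgeR. They include Slc5a2, the glucose transporter of the proximal tubule, with a log2 fold change of 0.38 (SE 0.11, edgeR adjusted p = 0.111). Others had negative log2 fold changes: BC017158 at -0.29 (SE 0.08, edgeR adjusted p = 0.0986), 9130023H24Rik at -0.53 (SE 0.16, edgeR adjusted p = 0.133) and Itgax at -0.50 (SE 0.26, edgeR adjusted p = 0.362).

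Because Cox6a2 is known as a muscle gene, the markers of striated muscle were read in the same libraries. Of 13 listed markers, 9 were in the table, and 8 of these stayed under 1 CPM in every library. Their sum was 2.14 to 3.63 CPM in WT and 1.65 to 5.22 CPM in dKO, so the groups overlapped. Ckm, muscle creatine kinase, was at 0 in all 4 WT libraries and at 0 to 0.0578 CPM in dKO, and Acta1, skeletal muscle actin, was at 0 to 0.265 CPM in the 8 libraries. The 6 markers of the distal convoluted and connecting tubule summed to 1282 to 1689 CPM in WT and to 1883 to 3111 CPM in dKO, without overlap. Within that list Pvalb lay the other way, at 21.5 to 36.9 CPM in WT and 10.5 to 25.3 CPM in dKO. The distal sum was lowest of WT in replicate 2, and in dKO highest in replicate 1 and lowest in replicate 3. The 6 markers of principal cells summed to 465 to 578 CPM in WT and 589 to 1593 CPM in dKO, higher without overlap. Of these 6 only Aqp2 was higher without overlap, at 225 to 314 CPM in WT and 339 to 1234 CPM in dKO. Their sum was highest of WT in replicate 2, and in dKO highest in replicate 1 and lowest in replicate 2, as was Cox6a2. In dKO replicate 1, Aqp2 alone held 1234 of the 1593 CPM. The 6 thick ascending limb markers summed to 5251 to 5929 CPM in WT and 6004 to 7154 CPM in dKO, also higher without overlap. Within that list Cldn10 lay the other way, at 168 to 206 CPM in WT and 125 to 150 CPM in dKO. The thick ascending limb sum was lowest of WT in replicate 2, but in dKO it too was highest in replicate 1 and lowest in replicate 2. The 4 blood markers summed to 258 to 505 CPM in WT and were lower in dKO, at 187 to 231 CPM, also without overlap. The 8 intercalated cell markers summed to 326 to 401 CPM in WT, to 7.93 to 17.6 CPM in dKO replicates 1 to 3 and to 490 CPM in the library labelled dKO replicate 4, where Cox6a2 lay within the range of the other 3 dKO libraries. Short genes in general stood high in WT replicate 2, as given below, and Cox6a2 is 680 bases long. The order of single libraries was not tested, nor was the part of these cell types in the level of Cox6a2.

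The other tissue-restricted members were read beside their widespread partners. Cox7a1, the heart and muscle form of subunit 7A, read 6.18, 8.02, 5.74 and 7.21 CPM in WT and 12.04, 5.66, 6.65 and 7.38 CPM in dKO. Only dKO replicate 1 was above the WT range, and the log2 fold change was 0.23 (SE 0.23, edgeR adjusted p = 0.69). Without dKO replicates 1 and 4 it was -0.14. It was the most abundant of the restricted forms, at 5.28 to 6.28% of the summed FPKM of Cox7a1 and Cox7a2 in WT and 5.17 to 9.84% in dKO. Cox8b, the muscle and brown fat form of subunit 8, read 0.334, 2.14, 0.138 and 2.04 CPM in WT and 1.99, 1.56, 1.57 and 2.26 CPM in dKO. WT replicates 1 and 3 stood apart at a low level, and the log2 fold change of 0.63 had an SE of 0.62 (edgeR adjusted p = 0.669). The same WT libraries 1 and 3 held the least Ucp1, the uncoupling protein of brown fat, at 0.557 and 0 CPM against 6.95 and 7.43 CPM in WT replicates 2 and 4. No such match was seen in dKO. There Ucp1 was at 7.105 CPM in replicate 2 and at 1.81 CPM in replicate 3, with Cox8b at 1.56 and 1.57 CPM. The 6 brown fat markers summed to 48.9 to 170 CPM in WT and 53.2 to 86.6 CPM in dKO, and their part in the level of Cox8b was not tested.

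Cox4i2, the lung form of subunit 4, had a WT mean of 0.893 ± 0.392 CPM and a dKO mean of 1.03 ± 0.326 CPM. Cox6b2, the testis form of subunit 6B, went from 4.92 ± 1.12 CPM to 5.79 ± 1.70 CPM. Ndufa4l2, a hypoxia-induced relative of the complex IV subunit Ndufa4, went from 5.41 ± 2.37 CPM to 5.29 ± 1.10 CPM (SD, n = 4 per group). For these 3 genes the groups overlapped and the edgeR adjusted p was 0.676 or more. Cox4i2 stayed at or under 0.387% of the FPKM of its pair in every library, Cox6b2 at or under 1.63% and Ndufa4l2 at or under 2.50%. Cox6a2 was thus the only restricted form of the 6 pairs whose share did not overlap between groups.

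**Figure D3:**
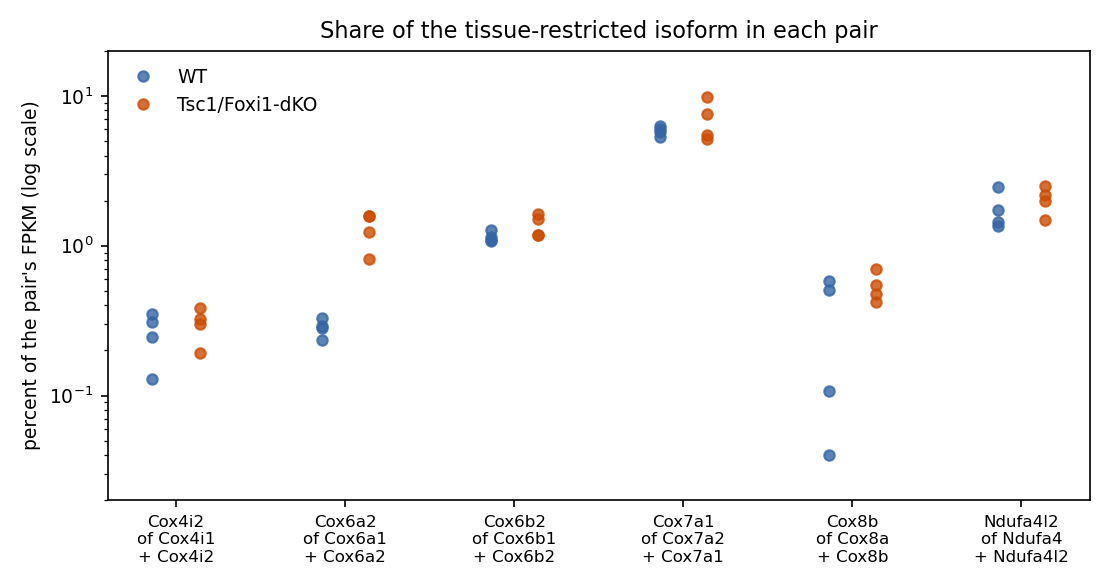
Share of the tissue-restricted isoform (percent of the summed FPKM of both isoforms, log scale, y axis) in each of 6 pairs (x axis), with 1 point per library. Only the Cox6a2 share separates the groups, at 0.234 to 0.330% in WT and 0.819 to 1.57% in dKO.

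The widespread complex IV subunits were among the most abundant nuclear members. Cox8a, which led all 91 nuclear members, was 989 ± 127 FPKM in WT and 953 ± 68.8 FPKM in dKO, and Cox6a1 followed. Cox4i1, the largest nuclear-encoded subunit, was 428 FPKM in both groups, with a log2 fold change of 0.01 (SE 0.13, edgeR adjusted p = 0.987). Cox6b1 and Cox7a2 had log2 fold changes of -0.04 and -0.07, and Cox7b, on the X chromosome, of -0.01. Ndufa4, first described in complex I and now placed in complex IV, read 333 to 442 CPM in WT and 289 to 363 CPM in dKO, and its log2 fold change was -0.21 (SE 0.11, edgeR adjusted p = 0.395). The median over the 18 nuclear complex IV members was -0.01, and 8 had positive and 10 negative log2 fold changes.

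Per length, the nuclear members spanned 1.22 FPKM for Cox4i2 to 971 FPKM for Cox8a, with a median of 85.8 FPKM over the 8 libraries. The medians of complexes II and III, at 185 and 149 FPKM, were above those of the complex I core at 88.0, the accessory subunits at 81.0 and complex V at 85.8 FPKM. These orders describe levels and were not tested.

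In complex I, 0 of 36 nuclear subunits passed the threshold. The core subunits carry the flavin and iron-sulfur clusters that conduct electrons. Ndufv1, which holds the flavin and the NADH binding site, had the smallest p-value among the 7 nuclear core subunits. It read 360, 439, 383 and 382 CPM in WT and 302, 324, 350 and 322 CPM in dKO. All 4 dKO libraries were below all 4 WT libraries, but the log2 fold change of -0.27 (SE 0.09) did not pass (edgeR adjusted p = 0.174). Its neighbour in the enzyme Ndufv3, a small accessory subunit of the flavoprotein arm, read 132, 164, 142 and 132 CPM in WT and 105, 129, 121 and 118 CPM in dKO. Here too the groups did not overlap, with a log2 fold change of -0.26 (SE 0.10, edgeR adjusted p = 0.2).

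The 29 accessory subunits of complex I, which surround and stabilise the core, had a median log2 fold change of -0.04, with 9 positive and 20 negative. Ndufa1 and Ndufa2 were the most abundant of them per length, at 198 ± 36.0 and 204 ± 44.6 FPKM in WT and 198 ± 15.1 and 189 ± 25.8 FPKM in dKO. The 8 assembly factors, which join the enzyme together without staying in it, were low, from 4.14 FPKM for Ndufaf2 to 26.5 FPKM for Ndufaf8. Ndufaf1 was next, at 17.9 FPKM in WT and 19.0 FPKM in dKO. Ndufaf7, a methyltransferase, had the smallest p among them and read 26.8 to 30.9 CPM in WT and 30.2 to 35.5 CPM in dKO. Its log2 fold change was 0.17 (SE 0.09, edgeR adjusted p = 0.367).

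Complex II is wholly nuclear-encoded, and all 4 of its subunits had negative log2 fold changes, from -0.14 to -0.01, with 0 past the threshold. Sdha, the flavoprotein that oxidises succinate, read 897, 932, 928 and 903 CPM in WT and 908, 776, 882 and 751 CPM in dKO. dKO replicates 2 and 4 were low, and dKO replicates 1 and 3 lay near or within the WT range (log2 fold change -0.14, SE 0.10, edgeR adjusted p = 0.504). Sdhd, a membrane anchor, was 240 ± 25.9 FPKM in WT and 237 ± 22.8 FPKM in dKO. In complex III, Uqcrfs1, the Rieske iron-sulfur protein, was 353 ± 39.2 FPKM in WT and 341 ± 29.98 FPKM in dKO, and Uqcr10, a small subunit, was 317 ± 56.5 and 314 ± 22.7 FPKM. Uqcrq, which had the smallest p of complex III, had a log2 fold change of -0.12 (SE 0.14, edgeR adjusted p = 0.739).

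In complex V, 12 of 17 members had positive and 5 negative log2 fold changes, and the median was 0.02. Atp5a1 and Atp5b, the subunits of the catalytic head, were 755 ± 40.7 and 775 ± 42.7 FPKM in WT and 770 ± 33.5 and 739 ± 12.3 FPKM in dKO. Atp5g1, Atp5g2 and Atp5g3 encode the same mature subunit c of the rotor ring with different import sequences. Of the 3 transcripts Atp5g3 was the most abundant, with 277 FPKM in WT and 281 FPKM in dKO, against 81.2 and 79.5 FPKM for Atp5g2 and 40.6 and 45.5 FPKM for Atp5g1. Atp5g1 had the smallest p of complex V (log2 fold change 0.17, SE 0.14, edgeR adjusted p = 0.587).

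Besides Cox6a2, Ndufv1 and Ndufv3, the groups did not overlap in Ndufa10 and Uqcrc2, both lower in dKO, which were picked out after their values were seen. Ndufa10, an accessory subunit of complex I, read 252 to 290 CPM in WT and 240 to 250 CPM in dKO. Uqcrc2, a core protein of complex III, read 383.1 to 391 CPM in WT and 356 to 382.9 CPM in dKO. The 4 members that lay lower without overlap are 3.85% of the members, against 6.06% of all tested genes. At an unadjusted p under 0.05 stood 1 higher member and 2 lower, 2.88% of the members, against 16.8% of all tested genes, of which 9.36% were higher and 7.4% lower.

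Medians by complex were small in relation to the libraries left out. Over the 91 nuclear members the median log2 fold change was -0.02, with 38 positive and 53 negative. It became 0.06 without WT replicate 2, 0.02 without dKO replicate 2 and 0.01 without dKO replicate 4, and -0.07 without WT replicate 1. The medians of the nuclear classes lay between -0.08 for complex II and 0.02 for complex V, and each of the 7 took both signs over the alternatives.

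The nuclear members moved together from library to library, more within WT than between groups. In WT replicate 2 the median of the 91 nuclear members was 0.24 above the WT mean on the log2 scale, and 86 of 91 (94.5%) had their highest WT value there, against 32.5% of all tested genes. The same was seen outside the chain, in 71 of 77 mitochondrial ribosome genes (92.2%), whose median was 0.20 there. The other 3 WT libraries had medians of -0.14, -0.04 and -0.05. In dKO replicates 1 to 4 the medians were 0.08, -0.12, 0.10 and -0.14, so both dKO libraries above and both below lay within the WT range. The nuclear members took 1.998 to 2.48% of counted reads in WT and 2.06 to 2.43% in dKO. Short genes in general stood high in WT replicate 2: the 280 other protein-coding genes up to 1000 bases had a median of 0.23 there, and the 7601 above 4000 bases one of -0.07. The nuclear members were above the WT mean at every length, with 0.31 in the 23 members up to 1000 bases and 0.16 in the 11 above 4000 bases. The part of gene length was not tested further.

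**Figure D4:**
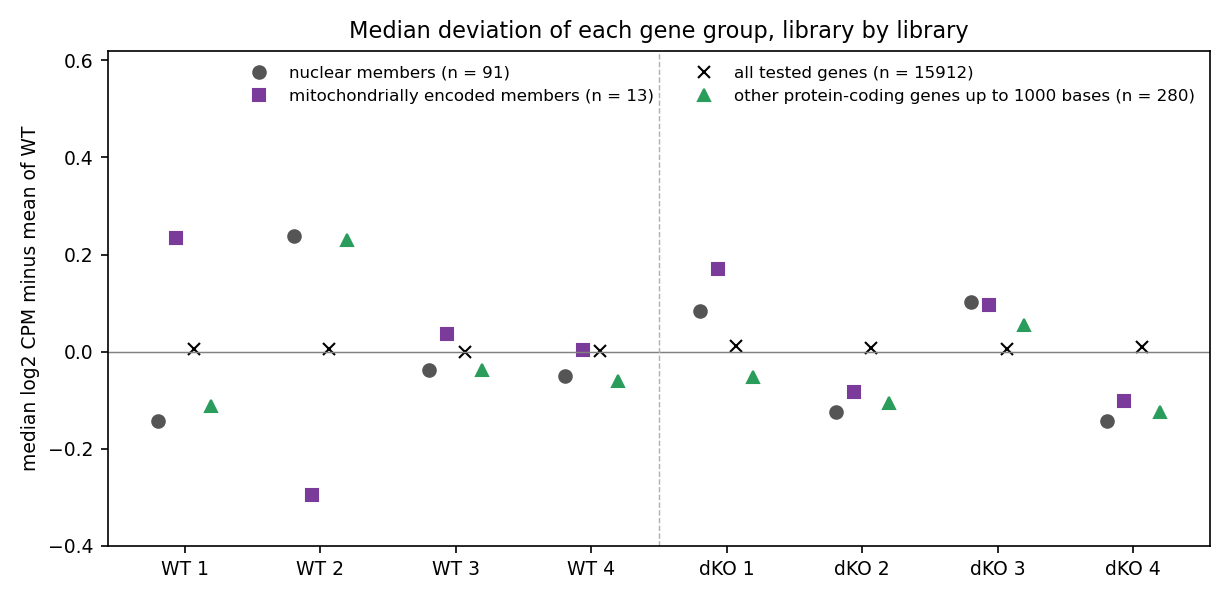
Median deviation from the WT mean (log2 CPM, y axis) in each library (x axis) for the 91 nuclear members, the 13 mitochondrially encoded members, all 15912 tested genes and 280 other short genes. WT replicate 2 shows the nuclear members at 0.24 and the mitochondrially encoded ones at -0.30, while all tested genes stay near 0.

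The 13 mitochondrially encoded mRNAs took 8.45, 6.19, 7.66 and 7.48% of counted reads in WT and 8.43, 7.41, 7.71 and 7.18% in dKO. The lowest and the highest share were both in WT, so the groups overlapped. The mean share was 7.45 ± 0.936% in WT and 7.68 ± 0.541% in dKO (SD, n = 4 per group). WT replicate 2, highest for the nuclear members, was lowest for the mitochondrial ones: 11 of 13 had their lowest WT value there. Of the 13 genes, 0 passed the threshold in edgeR's quasi-likelihood test and 0 had an unadjusted p under 0.05 there. DESeq2 and limma-voom also called 0 of the 13 after adjustment. Their median log2 fold change was 0.00, with a range of -0.06 to 0.13 over the alternatives.

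Mitochondrial DNA is transcribed from both strands as long precursors that are cut into mRNAs, so neighbouring genes of one strand are transcribed together. Per length, mt-Co1, a core subunit of complex IV, led all 104 members with a mean of 17289 FPKM over the 8 libraries. mt-Cytb, the only mitochondrial subunit of complex III, was next at 11909 FPKM. Of the complex I subunits, mt-Nd1 was at 9803 FPKM, mt-Nd2 at 6762, mt-Nd6 at 5276, mt-Nd4 at 4959 and mt-Nd5 at 4354 FPKM. Far below lay mt-Atp6 at 621 FPKM, mt-Co2 at 537, mt-Co3 at 411, mt-Nd4l at 227 and mt-Nd3 at 89.9 FPKM, and mt-Atp8 closed the order at 10.2 FPKM. Over the 8 libraries, neighbours in this order overlapped in their ranges except at 4 steps: from mt-Co1 to mt-Cytb, from mt-Nd1 to mt-Nd2, from mt-Nd5 to mt-Atp6 and from mt-Nd3 to mt-Atp8.

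The 5 genes from mt-Atp6 to mt-Nd3 in this order share nearly all their sequence with annotated nuclear copies. A stretch of chromosome 1 from 24611535 to 24616197 (GENCODE M21, GRCm38), 4663 bases long, holds 7 pseudogenes of mitochondrial genes in the mitochondrial order. Of the 50-base windows of mt-Co2, 100% are also found in another annotated transcript, and likewise 99.9% of mt-Co3, 99.5% of mt-Atp6, 98.8% of mt-Nd4l and 98.0% of mt-Nd3. mt-Nd4 shares 62.2% and mt-Co1 51.1%, while mt-Nd2 shares 8.19%, mt-Nd5 shares 7.61% and mt-Cytb, mt-Nd1, mt-Nd6 and mt-Atp8 share 0%. The first 60 bases of mt-Co2 and mt-Nd3 are shown beside their copies Gm28661 and Gm28438, because they show how little there is to tell the copies apart. The pair of mt-Co2 is identical over all 681 bases compared. The pair of mt-Nd3 differs at 1 of 345 bases, T3C counted from the first base of mt-Nd3, which is in capitals.
mt-Co2: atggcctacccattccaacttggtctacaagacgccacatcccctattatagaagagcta
Gm28661: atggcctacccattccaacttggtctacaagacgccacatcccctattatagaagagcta
mt-Nd3: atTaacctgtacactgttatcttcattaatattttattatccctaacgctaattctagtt
Gm28438: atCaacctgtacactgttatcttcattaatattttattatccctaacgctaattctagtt

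Reads were counted for the copies as well. Of all reads counted for mt-Co2 and Gm28661, Gm28661 held 37.5 to 53.5% in the 8 libraries. The copies held 20 to 39.6% of the reads of the mt-Atp6 pair, 12.8 to 32.8% for mt-Co3, 17.2 to 55.6% for mt-Nd4l and 14.5 to 19.2% for mt-Nd3. Where the copy covers part of the gene the shares were small, 0.501 to 1.13% for mt-Nd4 and 0.213 to 0.385% for mt-Co1. All 7 copies together took 0.0559 to 0.0928% of counted reads, so adding them moved the mitochondrial share only to 6.25 to 8.535% in WT and 7.25 to 8.52% in dKO. The sources used here do not say how reads with more than 1 best position were counted, and the part of such reads in the low level of these 5 genes was not tested. The counts of these 5 genes, and of their copies, are therefore uncertain, and those of mt-Nd4 and mt-Co1 are open to the same doubt over the part they share.

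**Figure D5:**
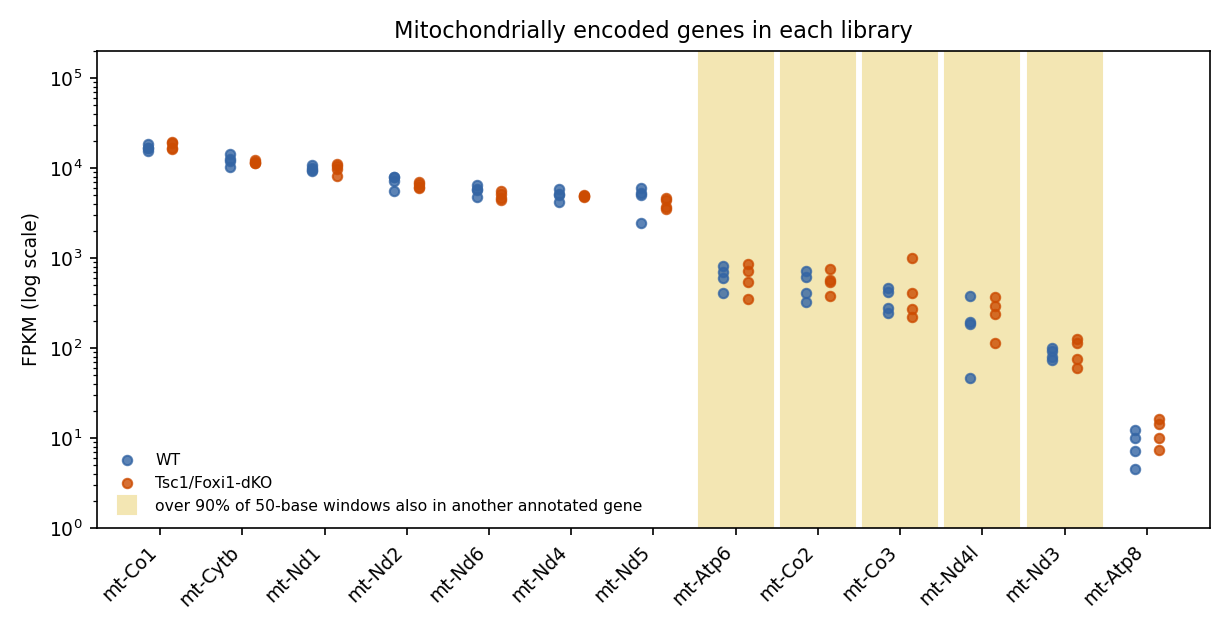
FPKM (log scale, y axis) of the 13 mitochondrially encoded genes in order of their mean (x axis), with 1 point per library; shaded genes share over 90% of their 50-base windows with another annotated gene. The 5 shaded genes lie at means of 89.9 to 621 FPKM and 7 of the unshaded ones at 4354 to 17289 FPKM.

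The highest library exceeded the lowest 2.10 to 8.19 times in CPM for these 5 genes and 1.27 to 2.50 times for the 7 abundant ones. These ranges overlapped, since mt-Nd5, at 2.50 times, varied more than mt-Nd3, mt-Co2 and mt-Atp6. mt-Nd4l read 57.5, 13.9, 54.9 and 113 CPM in WT and 109, 71.9, 33.7 and 88.2 CPM in dKO, and its log2 fold change of 0.34 had an SE of 0.62 (edgeR adjusted p = 0.85). mt-Co3 read 329, 215, 191 and 359 CPM in WT and 783, 174, 322 and 211 CPM in dKO. dKO replicate 1 stood alone above all others, and the log2 fold change went from 0.45 (SE 0.49, edgeR adjusted p = 0.716) to -0.21 without it. mt-Co2 and mt-Atp6 had log2 fold changes of 0.13 (SE 0.27) and -0.03 (SE 0.29), and mt-Nd3 of 0.13 (SE 0.22).

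The abundant mitochondrial genes were measured more closely. mt-Co1 read 28660, 23843, 25520 and 25550 CPM in WT and 30193, 25870, 29613 and 25236 CPM in dKO. The groups overlapped, and the log2 fold change was 0.10 (SE 0.12, edgeR adjusted p = 0.737). mt-Nd1 and mt-Nd4 had log2 fold changes of 0.00 (SE 0.12) and -0.04 (SE 0.12), mt-Cytb of -0.07 (SE 0.12) and mt-Nd2 of -0.14 (SE 0.14). mt-Nd5 read 11079, 4426, 9614 and 9102 CPM in WT and 6695, 8405, 6325 and 8134 CPM in dKO. WT replicate 2 stood below all other libraries, and the log2 fold change of -0.21 had an SE of 0.25 (edgeR adjusted p = 0.728).

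mt-Nd6, the only mRNA of the light strand, had the smallest p of the 13. It read 3342, 2481, 2992 and 2926 CPM in WT and 2652, 2410, 2858 and 2319 CPM in dKO, overlapping between groups, with a log2 fold change of -0.20 (SE 0.12, edgeR adjusted p = 0.459). Its annotated end overlaps that of mt-Nd5 on the other strand by 14 bases, from 13552 to 13565. The sources used here do not say whether counting used the strand, and without it mt-Nd6 reads cannot be told from antisense transcripts of the heavy strand. mt-Atp8 and mt-Atp6 lie on the same strand and overlap by 43 bases, from 7927 to 7969, which are shown in capitals at the end of mt-Atp8 because a read there belongs to both genes.
mt-Atp8 end: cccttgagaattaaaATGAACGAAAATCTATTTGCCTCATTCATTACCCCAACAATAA

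mt-Atp8 read 2.51, 0.909, 1.45 and 2.04 CPM in WT and 2.92, 1.502, 2.05 and 3.30 CPM in dKO. These levels were a small fraction of those of its neighbours, the groups overlapped, and the log2 fold change was 0.50 (SE 0.35, edgeR adjusted p = 0.522). The interval between mt-Co2 and mt-Atp6, in which most of mt-Atp8 lies, is 230 bases long, and the interval between their copies on chromosome 1 is 233 bases. The sequence of that chromosome 1 interval was not analysed here.

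Of the nuclear members, 0 of 91 shared over 90% of their 50-base windows with another annotated transcript, and 39 shared none. The 8 that shared over 20% were Ndufaf2 (64.1%, with an overlapping transcript), Atp5o, Atp5g2, Ndufb6, Ndufa13, Uqcrb, Cox7c and Ndufs5. Their log2 fold changes ran from -0.27 for Ndufaf2 to 0.09 for Uqcrb, and 0 passed the threshold.

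The nuclear members lie on 19 chromosomes, and their promoters were read for shared motifs in the RefSeq set of GRCm38.p6. Of 91 nuclear members 75 had a promoter there, taken as 250 bases before the start. The motif of NRF1, a factor known to bind promoters of respiratory genes, was searched on both strands. Its form is shown in capitals further on, with any base at the fifth place. It was present in 14 of 75 members (18.7%), against 4.23% of all 27025 genes with a promoter there. The members and all genes were not matched for base composition. The ETS motif CCGGAAGT was in 4% against 3.23%, the ERR motif TCAAGGTCA in 1.33% against 0.422% and the YY1 motif AAGATGGCG in 1.33% against 0.71%. CCAAT was in 44.0% against 37.5%, and the muscle E-box CAGCTG in 8% against 14.7%. The motif of the muscle factor MEF2 was in 0 of 75 against 3.42%. Cox6a2 was not among the 75, so its promoter was not searched for any of these motifs. A motif is a match of letters and no evidence of binding. The promoters of Cox6a1 (chr5:115348959-115349208, minus strand) and Sdhd (chr9:50603850-50604099, minus strand) are shown with the NRF1 motif in capitals, as the members of highest FPKM that hold it. For Cox6a1 the bases after the start were found in a GENCODE M21 transcript of the gene, but for Sdhd they were not.
Cox6a1 promoter: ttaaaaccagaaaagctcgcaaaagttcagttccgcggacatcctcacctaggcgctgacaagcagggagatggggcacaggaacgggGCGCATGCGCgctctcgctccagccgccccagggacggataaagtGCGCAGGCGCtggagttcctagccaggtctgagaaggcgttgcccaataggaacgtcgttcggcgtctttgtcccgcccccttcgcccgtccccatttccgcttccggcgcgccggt
Sdhd promoter: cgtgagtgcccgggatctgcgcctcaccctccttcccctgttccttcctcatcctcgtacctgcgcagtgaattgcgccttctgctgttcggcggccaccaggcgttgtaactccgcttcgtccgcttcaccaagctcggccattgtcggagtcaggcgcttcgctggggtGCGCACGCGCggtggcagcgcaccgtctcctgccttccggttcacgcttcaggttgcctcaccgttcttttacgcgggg

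Genes that feed, build or regulate the chain outside the rule were read in the same fit. Of 9 tested electron carriers, 1 was called, against 2.28% of all tested genes. At an unadjusted edgeR p under 0.05, 2 of the 9 were higher and 1 was lower. The called gene was Sqor, the sulfide oxidase that passes electrons to ubiquinone. It read 60.7, 66.5, 60.7 and 62.1 CPM in WT and 126, 118, 121 and 112 CPM in dKO. The groups were far apart, and the log2 fold change was 0.94 (SE 0.07, edgeR adjusted p = 9.72e-05). Among 20 complex IV assembly genes, 23 assembly genes of the other complexes, 14 genes of mitochondrial DNA upkeep and transcription, 10 nuclear regulators, 77 mitochondrial ribosome genes and 13 citrate cycle genes, 0 passed edgeR's threshold. At an unadjusted p under 0.05 there were 4 higher and 12 lower of the 157 genes of these 6 lists (2.55% and 7.64%), against 9.36% and 7.4% of all tested genes. Their median log2 fold changes were -0.05, -0.05, -0.04, 0.04, -0.06 and -0.03. The genes nearest the threshold in these lists and among the carriers were picked out after their values were seen. They were Cox15, which makes the heme of complex IV, Mrpl16, a protein of the mitochondrial ribosome (log2 fold change -0.37, edgeR adjusted p = 0.0642), and Cycs, which encodes cytochrome c. For Cycs the means were 288 ± 32.8 CPM (WT) and 227 ± 7.35 CPM (dKO), with a log2 fold change of -0.35 (edgeR adjusted p = 0.0986), and for Cox15 they were 116 ± 3.02 and 90.2 ± 9.38 CPM, with a log2 fold change of -0.37 (edgeR adjusted p = 0.0583).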

How the data were processed

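Poly(A) RNA of whole mouse kidney was sequenced by the authors on a HiSeq system. Per the labels, reads were aligned with HISAT2 2.0.4 and counted with HTSeq 0.9.1; the genome build, the strand setting and the handling of reads with several positions are not given in the sources used here. The authors deposited unnormalised counts for each gene, a signal equal to those counts over 1 size factor per library (not used here), gene lengths, and FPKM scaled by the same factors. It also holds the authors' own fold changes and p-values, which were not used. Deposited positions of all 104 members overlapped GENCODE M21 (GRCm38), 98 of them identically.

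Counts were filtered with filterByExpr (minimum count 10, minimum total 15), scaled by TMM and tested, two-sided, with edgeR 4.0.16 (quasi-likelihood, robust) in R 4.3.3 over 15912 genes, 4 WT against 4 dKO libraries, with a threshold of 0.05 after Benjamini-Hochberg adjustment. CPM uses the TMM-scaled library size. Medians per library are of log2 CPM with a prior count of 2. The test was checked on simulated data of 15656 genes made from these libraries. Of 67 genes changed 1.5-fold 23.9% were recovered, of 67 changed 2-fold 59.7% and of 66 changed 4-fold 89.4%. Of 122 calls 7 (5.74%) were false. The counts were drawn from the dispersions that edgeR fitted to these libraries, so the check cannot show how well that model fits the data. The changed genes were drawn from all tested genes (median SE 0.145), so their recovery does not describe the members (median SE 0.118). Each gene was simulated independently of the others. Shifts shared by many genes of 1 library, as in WT replicate 2, were therefore not part of this check. Total counts per library were 18573459, 19179034, 14791687 and 17867143 in WT and 21293850, 17173194, 24973213 and 17786932 in dKO.

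Members named are those past the threshold, all 13 mitochondrial ones, in each nuclear class the 2 of highest FPKM and the 1 of smallest p, and the isoform pairs, of which Cox7b2 and Cox8c are not analysed here. Of the members that this rule takes, 1 is not reported here, though it stays in every test and count. The members, lists and naming rule were chosen with earlier results of these data known. Alternatives were RLE and upper-quartile scaling, DESeq2 1.42.0, limma-voom (limma 3.58.1), no filter, at least 1 CPM in 4 libraries, non-robust estimation, mitochondrial genes left out, protein-coding genes only, limma on log2 FPKM plus 1 or 0.1, each library left out, and dKO replicates 1 and 4 left out together.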

Additional observations from a re-analysis of the deposited data

Results flagged for a closer look

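Of 96 sets of 4 libraries checked (the read shares, the group medians and the named members, each within WT and within dKO), 6 held a library far from the other 3. The rule used is set so that chance flags about 1 in 20 such sets. The sets are not independent, since WT replicate 2 was high for most nuclear members. In 5 of the 6 it was WT replicate 2, at the high end. Uqcrfs1, the Rieske protein of complex III, was at 559 CPM there and at 450 to 468 CPM in the other WT libraries. Atp5g1, a gene of the rotor subunit c, was at 243 CPM against 183 to 189 CPM. The assembly factor Ndufaf8 was at 29.7 CPM against 19.8 to 21.5 CPM. Of the restricted complex IV genes, Cox6b2 was at 6.58 CPM against 4.12 to 4.49 CPM, and Ndufa4l2 at 8.93 CPM against 3.97 to 4.68 CPM. In dKO, the assembly factor Ndufaf1 was at 25.5 CPM in dKO replicate 2 and at 29.6 to 29.9 CPM in the other 3 libraries.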

How the results depend on the processing

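The call of Cox6a2 and its direction held under all 20 alternatives run, with log2 fold changes of 1.85 to 2.45, and it was the only member called under any of them. The median of the nuclear members ran from -0.07 to 0.06 with libraries left out and from -0.03 to -0.01 under the other alternatives, and that of the mitochondrial members from -0.06 to 0.13 and from -0.01 to 0.02. The dKO minus WT difference in the mitochondrial share of reads was 0.238 percentage points over all counted reads, 0.246 over protein-coding reads and 0.21 with the 20 most abundant nuclear genes left out. Leaving out libraries moved the log2 fold changes of mt-Co3, Sdha, Cox7a1 and Cox7b by more than the SD of WT in 9 cases, with 0 of them called. mt-Co3 went from 0.45 to -0.21 without dKO replicate 1 and to -0.14 without dKO replicates 1 and 4, and Cox7a1 from 0.23 to -0.05 and -0.14. No paired analysis was possible because the WT samples are numbered 1 to 4 and the dKO samples carry other numbers. Low counts limit Cox6a2, Cox8b, Cox4i2 and mt-Atp8, and shared sequence limits mt-Co2, mt-Co3, mt-Atp6, mt-Nd4l and mt-Nd3 and, in part, mt-Nd4 and mt-Co1.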
